A study of Mus musculus with 32 samples.

Results

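Gene expression in midbrain tissue was compared between albino and pigmented mice in 8 of the 32 RNA-seq libraries of the series. The pigmented group was the 4 libraries labelled C57BL/6 CN3 (the third cranial nerve, oculomotor). The albino group was the 4 libraries of the strain B6(CG)Tyr(c-2J)/J, of any label, in which Snap25, a protein of synaptic vesicle release, exceeded 1000 CPM (gene counts scaled to a common library total) and Hoxb3, a patterning gene of the hindbrain, stayed under 1 CPM. This rule took the libraries labelled albino CN3 1 and 2. It also took those labelled albino EOM 1 and 2, so 2 of the 4 albino libraries were reassigned from eye muscle to brain by their marker genes. Their genotype was taken from the label. The series holds extraocular muscle (EOM), tibialis anterior muscle (TA), CN3 and CN6 (abducens) tissue from both strains, with 4 libraries of each kind by label. The albino strain carries a changed copy of Tyr, which encodes tyrosinase, the first enzyme of melanin synthesis. The labels give no age, sex, time of collection or C57BL/6 substrain, and do not state whether replicates came from different animals. The p-values therefore reflect only how far these libraries spread, which may be technical. Library totals ran from 30694749 to 44254021 counts in C57BL/6 CN3 and from 30989995 to 34550801 counts in the albino libraries (exact permutation p = 0.257, two-sided, 70 splits). A gene without a count could still be present at up to 3 counts, which is 0.0678 to 0.0977 CPM in the 8 libraries and covers counting error alone.

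The values that chose the libraries are given as a description. Snap25 read 2578, 2653, 2630 and 2966 CPM in C57BL/6 CN3 1 to 4. Among the albino libraries it was 2495 and 2487 CPM in CN3 1 and 2 by label, and 2509 and 2447 CPM in those labelled albino EOM 1 and 2. Hoxb3 was at most 0.271 CPM in the pigmented and 0.191 CPM in the albino libraries. The nearest albino brain library left outside was albino CN6 1, with 2.61 CPM of Hoxb3. Otx2, a transcription factor of the midbrain that the rule did not use, read 15.3, 9.45, 26.4 and 19.6 CPM in C57BL/6 CN3 and 22.8, 7.08, 12.8 and 14.3 CPM in the libraries labelled albino CN3 1, CN3 2, EOM 1 and EOM 2. The 2 groups overlapped, and both lay above the 0.402 to 1.30 CPM of the 4 C57BL/6 CN6 libraries. Ckm, the creatine kinase of muscle, was at most 0.222 CPM in the albino libraries, against 4279 CPM or more in every C57BL/6 muscle library. The tissue of the libraries labelled albino EOM 1 and 2 thus went against their label, while Chat went against the label of the C57BL/6 CN3 libraries. Chat encodes the enzyme that makes acetylcholine and defines motor neurons, and these 4 libraries held at most 0.717 CPM of it.

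The oculomotor nucleus lies in the floor of the midbrain beside the aqueduct, and its cholinergic motor neurons drive most of the muscles that turn the eye. The Edinger-Westphal nucleus sits just above it and holds cells that make the peptides encoded by Cartpt and Ucn. The serotonin cells of the dorsal raphe lie immediately below and behind. Albino mammals often show nystagmus, an involuntary oscillation of the eyes, and the series compares the eye motor system of both strains.

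Of 15880 genes tested, 45 were called at an adjusted p under 0.05 by edgeR's quasi-likelihood test with Benjamini-Hochberg adjustment (0.283%). The albino libraries were higher for 33 (0.208%) and lower for 12 (0.0756%). All 45 had no overlap between the 4 albino and the 4 pigmented libraries, and so did 1639 of the 15880 genes tested (10.3%). The median log2 fold change over all tested genes was -0.0028. The called genes included transmitter and peptide genes of particular neurons, with large differences. They also included genes with a like difference in the series' other brain libraries. The comparison with those other brain libraries, 4 C57BL/6 CN6 libraries and the 4 further albino libraries with over 1000 CPM of Snap25 (labelled CN6 1, CN6 2, TA 1 and TA 2), shared no library with the first. It called 19 of 15879 genes (0.12%). Gh, the growth hormone gene, was highest in number 2 of both C57BL/6 CN3 and C57BL/6 CN6 (362 and 279.9 CPM). Dbp, a clock output gene, was higher in numbers 1 and 2 than in 3 and 4 of both. Whether same-numbered libraries of both sets share animals is not given by the labels and was not tested.

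**Figure D1:**
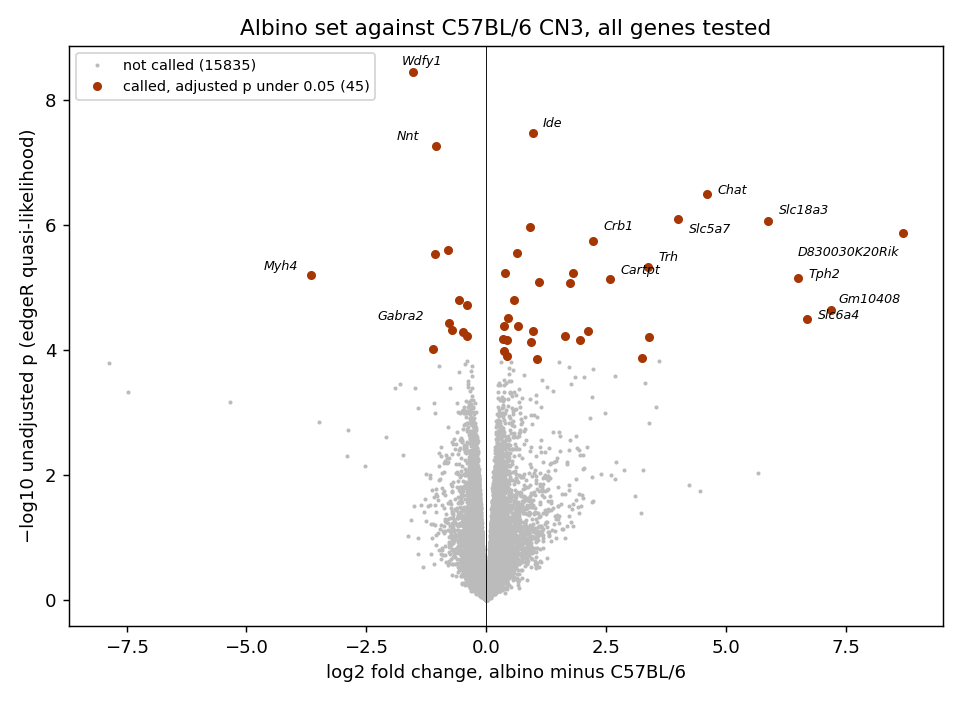
Each point is one of the 15880 genes tested, with the log2 fold change of the albino against the C57BL/6 CN3 libraries (4 and 4) on the x axis and -log10 of the unadjusted p on the y axis. The 45 called genes are larger and red; Wdfy1, Ide and Nnt have the smallest p, and the transmitter genes Chat, Slc18a3, Slc5a7, Tph2 and Slc6a4 lie far to the right with log2 fold changes of 4.00 to 6.69. The fitted values of D830030K20Rik and Gm10408, with no count in C57BL/6 CN3, are not measured folds.

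For the neuropeptide and serotonin genes, the 250 bases before the RefSeq transcription start are shown (GRCm38.p6, 5′ to 3′, all on the minus strand). Cartpt and Ucn are shown because they mark the same neighbouring nucleus and both hold TGACGTCA, the palindromic cyclic AMP response element. Of these, Cartpt was called and Ucn was not. The window of Trh, a peptide gene that was called, held TATAA but no TGACGTCA and is not shown. Tph2 is shown as the gene that defines serotonin cells of the brain. Capitals mark TGACGTCA and TATAA, searched on both strands. The windows are chr13:99900684-99900933 for Cartpt, chr5:31138896-31139145 for Ucn and chr10:115185023-115185272 for Tph2.
Cartpt: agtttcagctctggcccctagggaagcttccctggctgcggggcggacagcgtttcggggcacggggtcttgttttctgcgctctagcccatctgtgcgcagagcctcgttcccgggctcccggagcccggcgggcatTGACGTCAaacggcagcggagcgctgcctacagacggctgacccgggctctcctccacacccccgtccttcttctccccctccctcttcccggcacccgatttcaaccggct
Ucn: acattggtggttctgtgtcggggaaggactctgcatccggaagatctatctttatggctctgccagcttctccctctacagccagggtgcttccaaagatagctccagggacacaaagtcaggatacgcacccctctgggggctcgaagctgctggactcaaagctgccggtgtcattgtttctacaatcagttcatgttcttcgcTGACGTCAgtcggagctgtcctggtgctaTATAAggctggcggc
Tph2: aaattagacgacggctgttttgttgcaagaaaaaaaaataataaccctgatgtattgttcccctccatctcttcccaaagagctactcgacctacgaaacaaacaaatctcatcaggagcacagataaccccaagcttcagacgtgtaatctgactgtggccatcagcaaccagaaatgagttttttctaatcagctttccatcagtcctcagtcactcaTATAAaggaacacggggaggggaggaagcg
TGACGTCA starts 112 bases before the start of Cartpt and 44 bases before that of Ucn. It occurs in 1.55% of all 32841 promoter windows of this length, in 2.45% of the 15153 windows of tested genes and in 2 of the 39 windows of called genes, those of Cartpt and Btaf1. TATAA starts 15 bases before the start of Ucn and 30 bases before that of Tph2, and occurs in 22.8% of all windows, in 13.1% of those of tested genes and in 13 of the 39 of called genes. The windows cover 35 of the 45 called genes. A match describes these letters alone.

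The genes that make, pack and take up again acetylcholine or its choline rose in the albino libraries, and were low in every C57BL/6 CN3 library. Chat (chromosome 14, 32408203 to 32465989) read 0.717, 0.452, 0.212 and 0.353 CPM in C57BL/6 CN3 1 to 4. Among the albino libraries it was 8.52 and 16.7 CPM in CN3 1 and 2 by label, and 9.05 and 6.86 CPM in those labelled albino EOM 1 and 2. Every albino library was thus above every pigmented one, and albino CN3 2 was the highest. Chat rose from 0.433 ± 0.213 to 10.3 ± 4.40 CPM (SD, n = 4 and 4), a log2 fold change of 4.59 ± 0.39 (SE, edgeR adjusted p = 0.00128). In bulk tissue, fewer cells of a type and less RNA per cell cannot be told apart.

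Slc18a3, the transporter that fills synaptic vesicles with acetylcholine, lies within the span of Chat on the same strand (chromosome 14, 32462438 to 32464850) and shares 0 exon bases with it. Its C57BL/6 CN3 libraries read 0, 0.271, 0.053 and 0.118 CPM, at most 12 counts. Those labelled albino CN3 1, CN3 2, EOM 1 and EOM 2 read 6.07, 10.8, 7.61 and 4.08 CPM. The groups did not overlap, and the order of the 4 albino libraries was the same as for Chat. The log2 fold change was 5.86 ± 0.55 (edgeR adjusted p = 0.00233). limma voom gave an adjusted p of 0.0531 for Slc18a3 and did not call it. Slc5a7, which returns choline to the nerve ending (chromosome 17, 54273590 to 54299034), read 2.87, 3.55, 1.14 and 1.88 CPM in C57BL/6 CN3 and 26.6, 59.0, 39.4 and 26.1 CPM in the albino libraries in the same order. It rose by 4.00 ± 0.37 on the log2 scale (edgeR adjusted p = 0.00233).

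A pair of further motor neuron genes rose. Prph, the intermediate filament peripherin, rose from 2.83 ± 0.722 to 9.87 ± 2.17 CPM (log2 fold change 1.82 ± 0.21, edgeR adjusted p = 0.00636). Chodl, a membrane protein found in fast motor neurons, rose from 1.40 ± 0.503 to 5.42 ± 1.54 CPM (1.96 ± 0.30, edgeR adjusted p = 0.0285). The call of Chodl was lost without C57BL/6 CN3 4, albino CN3 1, albino CN3 2 or albino EOM 1 (adjusted p up to 0.125). limma voom did not call it either (0.0531). Of the 19 genes on the cholinergic motor neuron list, 15 passed the filter on low counts. Called higher were 5, lower 0, and 10 were not called. Their median log2 fold change was 1.40. At an unadjusted p under 0.05, 9 of the 15 were higher and 0 lower, against 8.44% and 7.78% of all tested genes. This and the other gene lists were chosen with earlier results of these data known and are no separate evidence. Ache, the esterase that breaks down acetylcholine in many cells, lay between 182 and 197 CPM in the pigmented and between 180 and 214 CPM in the albino libraries.

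The other brain libraries showed no call for these genes. There Chat ranged from 9.39 to 20.5 CPM in C57BL/6 CN6 and from 18.0 to 26.5 CPM in the albino libraries, a log2 fold change of 0.46 ± 0.21 (edgeR adjusted p = 0.392). Slc18a3 and Slc5a7 were also higher in albino there, by 0.50 ± 0.24 and 0.61 ± 0.20, without a call (edgeR adjusted p = 0.415 and 0.31). Whether the genotype difference differed between the 2 sets of brain libraries was tested directly as an interaction. It was called for 5 of 16342 genes (0.0306%), all 5 with a higher difference in the oculomotor set. The interaction was 4.13 ± 0.46 for Chat, 5.34 ± 0.61 for Slc18a3 (edgeR adjusted p = 0.00118 for both) and 3.38 ± 0.44 for Slc5a7 (edgeR adjusted p = 0.00333). The other two genes were Cartpt, given below with its values, and Klhl14, a gene named after its values were seen. Klhl14 ranged from 1.91 to 3.00 CPM in C57BL/6 CN3 and from 4.35 to 7.33 CPM in the albino libraries, and its interaction was 1.47 (edgeR adjusted p = 0.0491), a call that most fits without 1 library did not make. The sites of 2 of the other albino libraries are in doubt, since albino CN6 1 had 2.61 CPM of Hoxb3 against 11.6 to 21.3 CPM in the rest, and albino TA 1 had 32.7 CPM of Otx2. Without both, the interaction was called for 2 genes, Chat and Slc18a3. With all brain libraries, limma voom called the interaction for Cartpt alone, so for none of the cholinergic genes. These fits took the libraries of both sets as separate sources, which was not tested. The C57BL/6 CN3 libraries were low in Chat beside every other brain library, so genotype and what each dissection held cannot be told apart for the cholinergic genes.

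**Figure D2:**
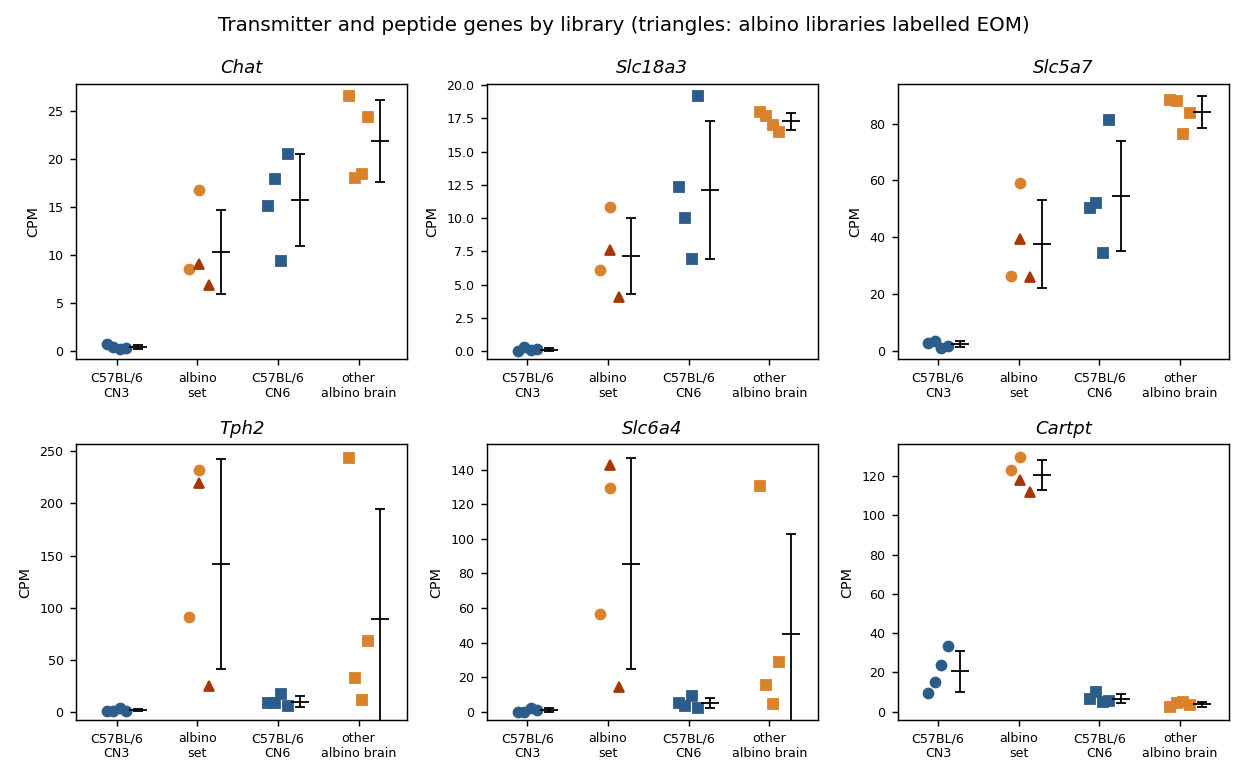
CPM of 6 genes in each of the 16 brain libraries, with the mean and SD of each group of 4 as bars beside the points (some SD bars are cut off at 0). The albino set is the 4 libraries chosen by Snap25 and Hoxb3, with triangles for the 2 labelled EOM; Chat, Slc18a3 and Slc5a7 are low in C57BL/6 CN3 alone, while Cartpt is high in the albino set alone, at 112 to 130 CPM.

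Of the peptide genes, Cartpt and Trh rose and Ucn was not called. Cartpt (chromosome 13, 99898489 to 99901091), which encodes the CART peptide, read 9.35, 15.2, 23.8 and 33.7 CPM in C57BL/6 CN3 1 to 4. Among the albino libraries it was 123 and 130 CPM in CN3 1 and 2 by label, and 118 and 112 CPM in those labelled albino EOM 1 and 2. The 4 albino libraries lay close together, while the pigmented ones spanned a wider range below them. Cartpt rose by 2.57 ± 0.31 on the log2 scale (20.5 ± 10.6 to 120.5 ± 7.61 CPM, edgeR adjusted p = 0.00651). In the other brain libraries it was 5.09 to 9.81 CPM in C57BL/6 CN6 and 2.28 to 5.02 CPM in albino, and the interaction was 3.40 ± 0.44 (edgeR adjusted p = 0.00333). Without albino CN6 1 and albino TA 1 this interaction was not called. With Hoxb3 allowed up to 5 CPM, which adds albino CN6 1 to the albino libraries, the call of Cartpt in the oculomotor set was lost as well.

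Ucn, the stress peptide urocortin, read 0, 0.678, 0 and 0.706 CPM in C57BL/6 CN3 and 4.58, 3.84, 5.08 and 3.10 CPM in the libraries labelled albino CN3 1, CN3 2, EOM 1 and EOM 2. The groups did not overlap, but its log2 fold change of 3.54 ± 0.75 was not called (edgeR adjusted p = 0.097). Trh, the thyrotropin-releasing hormone (chromosome 6, 92242061 to 92244650), read 0.652, 0.791, 0.927 and 0.294 CPM in C57BL/6 CN3. The albino libraries, in the order used for Ucn, read 7.07, 6.19, 10.8 and 3.79 CPM. Trh rose by 3.37 ± 0.38 on the log2 scale (edgeR adjusted p = 0.00575), while limma voom did not call it (adjusted p = 0.0683). Its difference in the other brain libraries was 1.084 ± 0.76 and was not called there (edgeR adjusted p = 0.57). The hypothalamus and neuropeptide list had 20 tested genes of 24, of which these 2, Cartpt and Trh, were called higher and 0 lower, with a median of 0.30. Penk, Sst, Tac1 and Nts, peptide genes of many brain regions, were not called.

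The serotonin neuron genes Tph2 and Slc6a4 rose, with a wide spread over the albino libraries. Tph2 (chromosome 10, 115078641 to 115185022), the enzyme that starts serotonin synthesis in the brain, read 1.11, 0.859, 3.23 and 1.09 CPM in C57BL/6 CN3. Values were 90.6 and 232.6 CPM in those labelled albino CN3 1 and 2, and 219.6 and 24.4 CPM in those labelled albino EOM 1 and 2. All 4 were above the pigmented libraries, although albino EOM 2 held far less than albino CN3 2 and EOM 1. The log2 fold change was 6.50 ± 0.77 (edgeR adjusted p = 0.00651). Without C57BL/6 CN3 4 the adjusted p was 0.0505, and limma voom, which weights libraries by quality, gave 0.209. Slc6a4, the serotonin transporter (chromosome 11, 76998603 to 77032340), read 0, 0.0904, 2.44 and 0.764 CPM in C57BL/6 CN3 and 56.5, 129, 143 and 14.2 CPM in the libraries labelled albino CN3 1, CN3 2, EOM 1 and EOM 2. It rose by 6.69 ± 0.95 on the log2 scale (edgeR adjusted p = 0.0199), a call lost without C57BL/6 CN3 4, albino CN3 1, albino CN3 2 or albino EOM 1 (adjusted p up to 0.113) and with limma voom (0.332).

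The rest of the serotonin list leaned the same way without passing the test. All 15 of its genes were tested, 2 were called higher and 0 lower, and the median log2 fold change was 1.74. At an unadjusted p under 0.05, 11 were higher and 0 lower, against 8.44% and 7.78% of all tested genes. Fev, the transcription factor that keeps serotonin cell identity, ranged from 0.136 to 0.530 CPM in C57BL/6 CN3 and from 0.752 to 5.15 CPM in albino. Its log2 fold change of 3.32 ± 0.63 was not called (edgeR adjusted p = 0.073). Slc18a2, the vesicle transporter of all monoamines, ranged from 9.14 to 50.9 CPM in C57BL/6 CN3 and from 37.1 to 164 CPM in albino, with overlap. The summed level of the list was 138 to 223 CPM in C57BL/6 CN3 and 243.5 to 833 CPM in albino. In the other brain libraries Tph2 was 5.30 to 17.1 CPM in C57BL/6 CN6 and 11.5 to 243.7 CPM in albino, a difference of 3.18 ± 0.79 that was not called (edgeR adjusted p = 0.244). Slc18a2 was called higher there (log2 fold change 2.43, edgeR adjusted p = 0.0408). The interaction of Tph2, 3.32 ± 1.22, was not called (edgeR adjusted p = 0.764). For the serotonin genes, too, genotype and dissection cannot be told apart.

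Catecholamine genes were not called in the oculomotor set. In the other brain libraries Th and Slc6a2 were called higher in albino (2.04 and 3.42, edgeR adjusted p = 0.0408 and 0.0149). The dopamine list had 10 tested genes of 11, with 0 called in either direction and a median of 0.67. Th, the first enzyme of catecholamine synthesis, ranged from 4.97 to 46.3 CPM in C57BL/6 CN3 and from 20.8 to 61.1 CPM in albino. Dbh, the enzyme that makes noradrenaline, read 15.8 CPM in albino CN3 2 and at most 0.742 CPM in the other 7 libraries. Slc6a2, the noradrenaline transporter, read 21.7 CPM in that library and at most 0.624 CPM elsewhere, and both were at 0 in the library labelled albino EOM 2.

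Transcripts of neighbouring tissue differed between single libraries and, for some tissues, between the groups. Pituitary hormone genes were present in every C57BL/6 CN3 library. Gh, growth hormone, read 5.02, 362, 120 and 37.3 CPM in C57BL/6 CN3 1 to 4 and 0.581, 0.508, 0.0624 and 1.04 CPM in the libraries labelled albino CN3 1, CN3 2, EOM 1 and EOM 2. Its log2 fold change of -7.87 ± 1.35 just missed the threshold (edgeR adjusted p = 0.0503). In the other brain libraries Gh ranged from 6.75 to 279.9 CPM in C57BL/6 CN6 and from 0.179 to 1.37 CPM in albino. The difference there, -6.63 ± 1.52, was not called (edgeR adjusted p = 0.206). Prl, prolactin, ranged from 0.912 to 78.1 CPM in C57BL/6 CN3 and from 0.0624 to 0.232 CPM in albino. Of the 9 pituitary genes, 5 were tested, 0 were called, and their summed level was 8.44 to 480 CPM in the pigmented and 2.48 to 3.39 CPM in the albino libraries. Lower at an unadjusted p under 0.05 were 4 of the 5, and 0 were higher, against 7.78% and 8.44% of all tested genes. The median log2 fold change of the 5 was -5.35. Fshb and Pou1f1 were at 0 in all albino libraries. The part of these transcripts in the other results was not tested beyond a fit with Gh as a covariate, which called 0 genes (edgeR), while Gh itself separates the groups.

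Among trace muscle transcripts, 1 was called. Myh4, a fast myosin heavy chain (chromosome 11, 67238029 to 67260446), read 1.43, 2.40, 2.07 and 3.73 CPM in C57BL/6 CN3 and 0.0968, 0.191, 0.343 and 0.116 CPM in the libraries labelled albino CN3 1, CN3 2, EOM 1 and EOM 2. It fell by 3.65 on the log2 scale (SE 0.43, edgeR adjusted p = 0.00638). In muscle libraries Myh4 reached 7416 CPM or more. In the other brain libraries it ranged from 0.480 to 3.72 CPM in C57BL/6 CN6 and from 0.0897 to 0.306 CPM in albino. Its difference there, -3.40 ± 0.60, was not called (edgeR adjusted p = 0.0962). The skeletal muscle list had 11 tested genes of 13, of which Myh4 alone was called. Its median was -0.69, and 6 genes were lower and 0 higher at an unadjusted p under 0.05, against 7.78% and 8.44% of all tested genes. The summed level of the list was 93.8 to 151 CPM in C57BL/6 CN3 and up to 124 CPM in albino, with overlap.

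Other regional markers stood out in single libraries of both genotypes. Prkcd, a kinase abundant in the thalamus, read 298 CPM in C57BL/6 CN3 1 against 11.03 to 14.4 CPM in the other 3. Its albino values were 9.26 CPM in CN3 1, 102 in CN3 2, 18.8 in EOM 1 and 305 in EOM 2, by label. Cbln3, a gene of cerebellar granule cells, read 88.9 CPM in the library labelled albino EOM 1 and at most 3.08 CPM in the other 7. Car8, abundant in Purkinje cells, read 157 CPM in that library and 11.95 to 22.5 CPM in the rest. The transcription factor gene En1 ranged from 0.941 to 2.15 CPM in C57BL/6 CN3 and from 2.43 to 14.8 CPM in albino. It was not called (edgeR adjusted p = 0.0641). Of the thalamus, cortex and striatum list 0 of 13 tested genes were called, of the cerebellum list 0 of 10, and of the midbrain transcription factor list 0 of 14, with medians of 0.08, 0.70 and -0.11. At an unadjusted p under 0.05, 1, 4 and 3 of these genes were higher in albino and 0 lower, against 8.44% and 7.78% of all tested genes. The part of these tissues in the called genes was not tested.

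**Figure D3:**
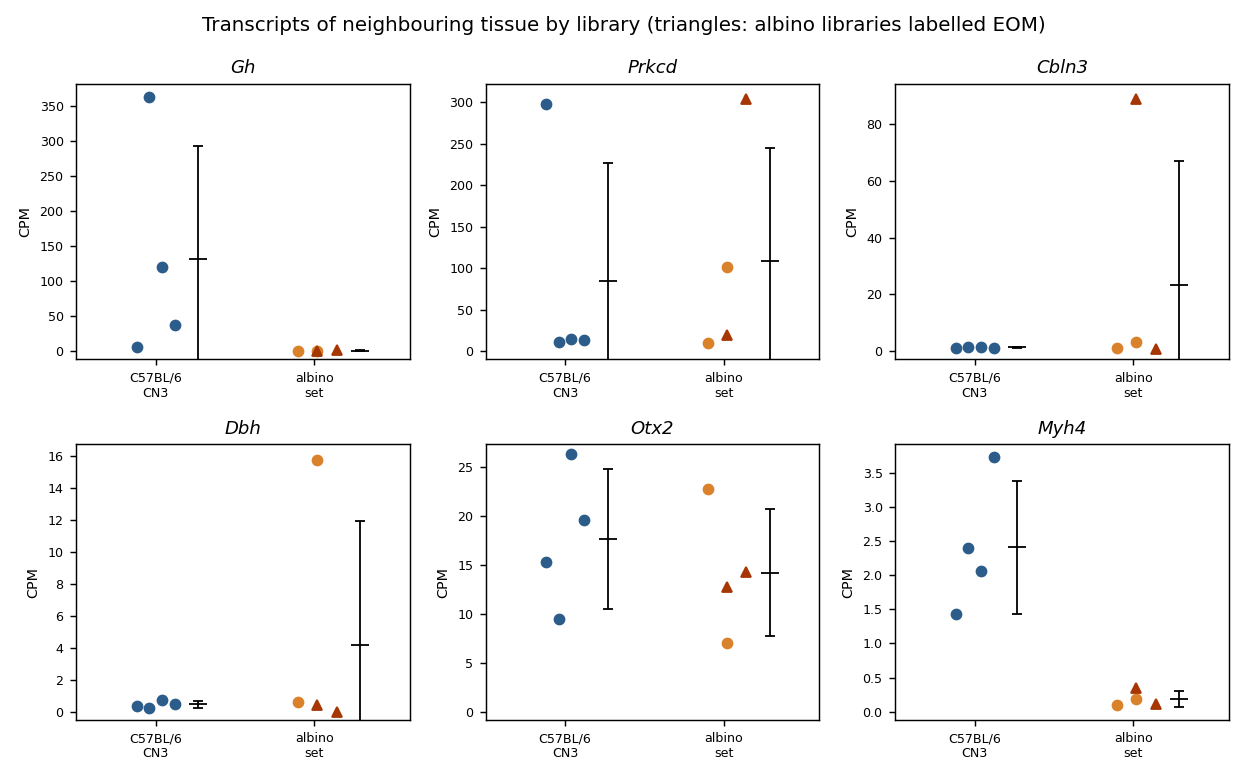
CPM of 6 markers in the 4 C57BL/6 CN3 and the 4 albino libraries (triangles: labelled EOM), with the mean and SD of each group (some SD bars are cut off at 0). Gh and Myh4 separate the groups, Prkcd is high in 1 pigmented and 2 albino libraries, Cbln3 and Dbh are each high in 1 albino library, and Otx2 overlaps.

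A different set of genes had a like difference in both sets of brain libraries. Of the 45 called genes, 14 were also called in the same direction in the other brain libraries, which is 31.1% of the 45 and 73.7% of the 19 called there. Of the 45, 44 could be tested there, and 30 were in the same direction at an unadjusted p under 0.05, against 12.8% of all genes tested there in either direction. For 2 genes the sign was opposite. Libraries of both sets may share animals, which the labels do not settle, so calls in both may not be independent. These 14 genes were 9 higher and 5 lower. Their median coefficient of variation was 8.99% over the C57BL/6 CN3 libraries and 10.8% over the albino ones. It was 14.7% and 11.4% for the other 31.

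Wdfy1, an endosomal adaptor of innate immune signalling (chromosome 1, 79702262 to 79776143), had the smallest p. It read 89.6, 83.5, 81.8 and 86.8 CPM in C57BL/6 CN3 1 to 4, and 31.8, 25.1, 28.6 and 32.1 CPM in the libraries labelled albino CN3 1, CN3 2, EOM 1 and EOM 2. It fell by 1.53 on the log2 scale (SE 0.08, edgeR adjusted p = 5.78e-05) and by 1.73 in the other brain libraries (edgeR adjusted p = 1.26e-05). Its exons overlap those of Mrpl44 on the other strand by 126 bases, so reads of both may be counted together. Nnt, the mitochondrial transhydrogenase that makes NADPH (chromosome 13, 119335448 to 119408997), read 47.2, 51.3, 49.1 and 46.0 CPM in C57BL/6 CN3. It read 22.0, 25.8, 22.4 and 22.9 CPM in the albino libraries in the order used for Wdfy1. Nnt fell by 1.04 in both sets of brain libraries (edgeR adjusted p = 0.000287 and 0.000137). It is known as a gene that a deletion in 1 C57BL/6 substrain disrupts, as background; no other gene of the NADPH and glutathione list was called (17 of 18 not called, median -0.07).

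Gabra2, a subunit of the GABA-A receptor (chromosome 5, 70957597 to 71095849), read 48.2, 40.0, 41.3 and 35.2 CPM in C57BL/6 CN3. Its albino values were 24.6 CPM in CN3 1, 23.7 in CN3 2, 26.9 in EOM 1 and 20.4 in EOM 2, by label. It fell by 0.77 (SE 0.11, edgeR adjusted p = 0.0222), and by 1.22 in the other brain libraries (edgeR adjusted p = 2.69e-05). The interaction of 0.44 was not called (edgeR adjusted p = 0.746). The call in the oculomotor set was lost without C57BL/6 CN3 3, albino CN3 1 or albino CN3 2 (adjusted p up to 0.0956). Gabra2 was the only one of 22 tested genes of glycine and GABA inhibition that was called. The glycine receptor gene Glra2 ranged from 23.2 to 31.4 CPM in C57BL/6 CN3 and from 34.6 to 39.5 CPM in albino, without a call (edgeR adjusted p = 0.0808).

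Crb1, a cell polarity gene of the retina (chromosome 1, 139197056 to 139377100), rose from 0.948 ± 0.260 to 4.38 ± 0.586 CPM. Its log2 fold changes were 2.22 ± 0.23 here and 2.53 ± 0.35 in the other brain libraries (edgeR adjusted p = 0.00324 and 0.0219). Entpd4, a nucleotide phosphatase of the Golgi (chromosome 14, 69337174 to 69367270), rose from 47.2 ± 3.18 to 88.2 ± 9.23 CPM, by 0.91 and 0.74 (edgeR adjusted p = 0.00242 and 0.00281). It shares 2110 exon bases with a gene model on the other strand. Fam205a2 rose from 3.13 to 6.63 CPM (1.10) and Aim2, a sensor of DNA in the cytosol, from at most 2.73 to at least 4.07 CPM (1.06). The zinc finger gene Zfp612 fell from 167.5 ± 6.34 to 125.8 ± 6.92 CPM (-0.40). The gene models 1500012F01Rik and 4931408D14Rik, named after their values were seen, rose by 0.64 and 1.65. The call of Zfp612 was lost without C57BL/6 CN3 4, albino CN3 1 or albino CN3 2 (adjusted p up to 0.0723). The calls of Aim2 and 4931408D14Rik were lost without any single library other than C57BL/6 CN3 1 (up to 0.165 and 0.115). Wdfy1, Ide, Nnt, Entpd4, Crb1 and Gabra2 stand on a list of genes known to differ between C57BL/6 substrains. That list held 10 tested genes, 3 called higher and 3 lower. It was drawn up with results of these data known and is no separate evidence.

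**Figure D4:**
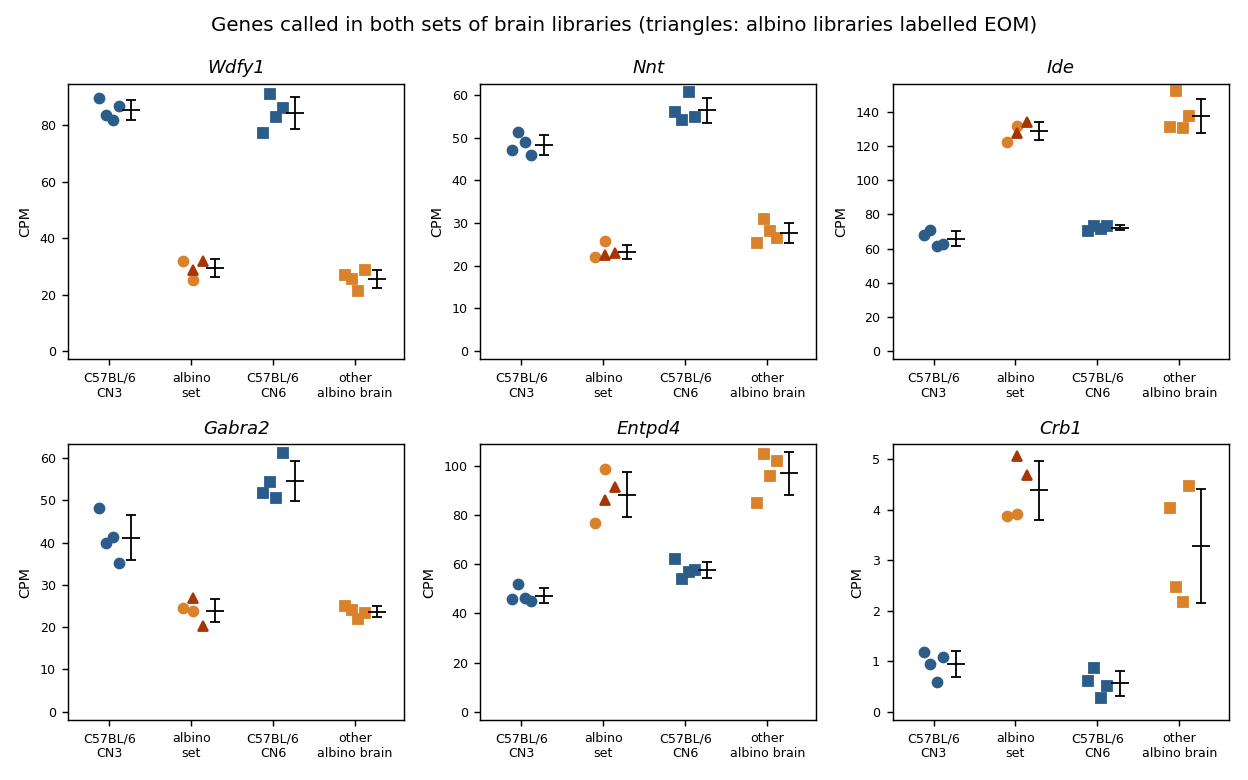
CPM of 6 genes in each of the 16 brain libraries, with the mean and SD of each group of 4 (triangles: albino libraries labelled EOM). Wdfy1, Nnt and Gabra2 are lower and Ide, Entpd4 and Crb1 higher in the albino libraries of both sets, with no overlap within a set.

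Some called genes lay near each other at 3 loci, described after their values were seen. On chromosome 19, Ide, the protease that degrades insulin (37268743 to 37337852), rose from 65.9 ± 4.32 to 129.0 ± 5.23 CPM, by 0.98 ± 0.07 (edgeR adjusted p = 0.000269). Btaf1, a regulator of TATA-binding protein (36926079 to 37012752), rose from 38.1 ± 3.42 to 56.6 ± 2.22 CPM (0.58 ± 0.08, edgeR adjusted p = 0.0117). In the other brain libraries they rose by 0.92 and 0.58. The call of Btaf1 was lost without C57BL/6 CN3 4, albino CN3 2 or albino EOM 1 (adjusted p up to 0.0639). Fgfbp3, beside Btaf1, had a log2 fold change of 0.75 ± 0.17 (edgeR adjusted p = 0.108) and was not called, nor was Cpeb3 between them (0.39, edgeR adjusted p = 0.139). Hectd2, Ppp1r3c and Tnks2 on one side and Kif11, Hhex and Exoc6 on the other were not called, with log2 fold changes from -0.05 to 0.22.

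On chromosome 17, the pseudogenes Tmem181b-ps (6438524 to 6467022) and Tmem181c-ps (6613753 to 6639790) fell from 119 to 56.4 CPM and from 19.1 to 11.4 CPM. The log2 fold changes were -1.07 and -0.73 (edgeR adjusted p = 0.00392 and 0.0246). Dynlt1b, a dynein light chain gene beside the first, read 6.57 ± 0.775 and 3.29 ± 0.697 CPM (-0.99, edgeR adjusted p = 0.0537) and was not called. Their near copies Tmem181a and Dynlt1a were at -0.03 and -0.01. Reads may be split between such copies, so these values are uncertain. The same holds on chromosome 14 for the gene models D830030K20Rik (3208488 to 3234351) and Gm10408 (3449379 to 3459287), members of a repeated family. Both had 0 counts in all 4 C57BL/6 CN3 libraries, and 41 to 64 and 13 to 21 counts in the albino libraries. Against a floor of 3 counts per library they were at least 17.8-fold and 6.32-fold higher. The call of Gm10408 was lost without albino CN3 1, albino CN3 2 or albino EOM 1 (adjusted p up to 0.0723). That of Tmem181c-ps was lost without C57BL/6 CN3 3 or 4 or any 1 albino library (up to 0.0976). Gm2897, also there, had a log2 fold change of 1.73 (edgeR adjusted p = 0.054) and was called in the other brain libraries (1.99, edgeR adjusted p = 0.0438).

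**Figure D5:**
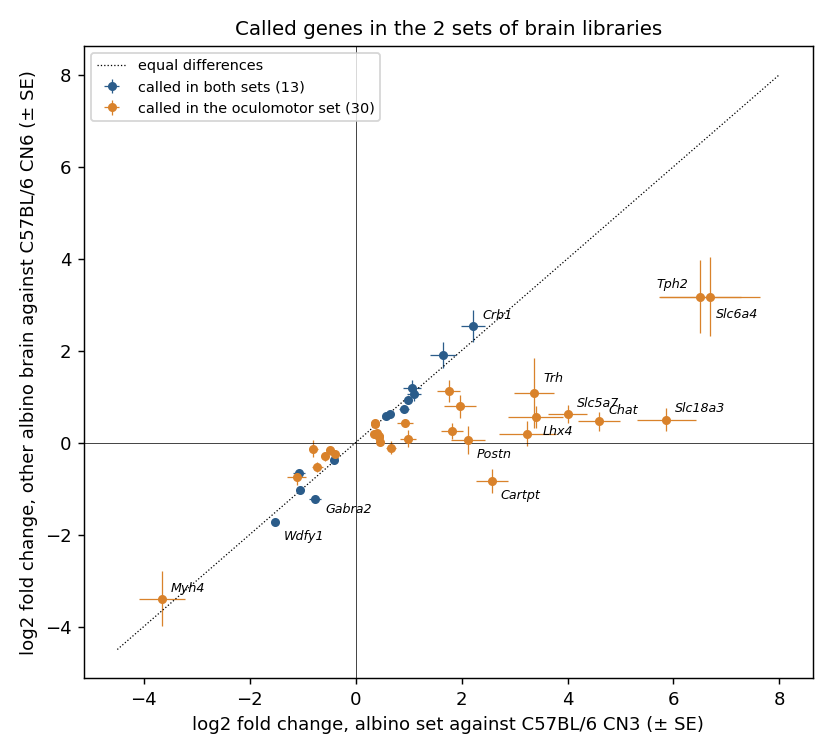
Log2 fold changes (albino against C57BL/6, ± SE) of 43 of the 45 called genes in the oculomotor set (x axis) and in the other brain libraries (y axis); D830030K20Rik and Gm10408, at 0 in all C57BL/6 CN3 libraries, are left out. The 13 genes called in both sets lie near the dotted line of equal differences. On the y axis Chat, Slc18a3 and Slc5a7 lie at 0.46, 0.50 and 0.61, far below that line, and Cartpt at -0.83.

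The remaining called genes had no call in the other brain libraries, which does not show that a difference was absent there. Postn, a matrix protein, read 0.927 to 3.19 CPM in C57BL/6 CN3 and 8.08 to 10.3 CPM in albino and rose by 2.12 ± 0.31 (edgeR adjusted p = 0.0246). The transcription factor Lhx4, which acts in motor neurons and the pituitary, read at most 0.261 CPM in C57BL/6 CN3 and 0.695 to 1.53 CPM in albino (3.40 ± 0.52, edgeR adjusted p = 0.028). Vdr, the vitamin D receptor, read at most 0.271 CPM and 1.10 to 2.18 CPM (3.24 ± 0.55, edgeR adjusted p = 0.0492). Asb4, an adaptor of a ubiquitin ligase, rose from 2.52 ± 0.344 to 8.46 ± 2.35 CPM (1.75 ± 0.21, edgeR adjusted p = 0.00684). Lgals1, a galectin, rose from 5.11 to 10.02 CPM (0.98) and Sema3e, a guidance cue, from 17.9 to 28.1 CPM (0.66). The calls of Postn, Lhx4, Vdr, Lgals1 and Sema3e were each lost without albino CN3 1, albino CN3 2 or albino EOM 1. Some were also lost without C57BL/6 CN3 2, 3 or 4 or albino EOM 2 (adjusted p up to 0.167). limma voom did not call Lhx4, Vdr or Asb4 (0.0683, 0.0982 and 0.0531).

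Smaller rises with tight replicates were seen for well expressed genes. Caprin1, an RNA-binding protein of stress granules, read 253.1, 244.3, 242.8 and 235.0 CPM in C57BL/6 CN3 and 314.8, 317.4, 323.3 and 320.5 CPM in the libraries labelled albino CN3 1, CN3 2, EOM 1 and EOM 2. It rose by 0.40 ± 0.05 (edgeR adjusted p = 0.00636) and kept its call without any single library. Rises of 0.35 to 0.46 were called for Ncald, a neuronal calcium sensor, Dner, a Notch ligand of neurons, Chordc1, a partner of Hsp90, Bex2, Fundc1, a receptor for mitophagy, and 2310057M21Rik. Lower in albino were BC039966 (12.5 ± 0.498 to 7.07 ± 0.321 CPM, -0.80, edgeR adjusted p = 0.00392), Wdr27 (3.65 to 1.67 CPM, -1.11), 9430015G10Rik (-0.57), Tekt5, a tektin of cilia (-0.48), and Tcea2, an elongation factor of RNA polymerase (-0.40). Ncald shares exon bases with other gene models on both strands. The calls of Ncald, Dner, Bex2, Tekt5 and 2310057M21Rik were lost without any single library other than C57BL/6 CN3 1. Those of Chordc1, Fundc1, Tcea2 and Wdr27 were lost without any of 5 or 6 libraries, among them albino CN3 1, albino CN3 2, albino EOM 1 and C57BL/6 CN3 2 (adjusted p up to 0.157 over all 9). That of 9430015G10Rik was lost without albino EOM 1 or albino CN3 2 (0.0639). In the other brain libraries Asb4, Wdr27, Ncald and Bex2 had log2 fold changes of 1.12, -0.76, 0.42 and 0.41. These were not called (edgeR adjusted p = 0.185, 0.185, 0.237 and 0.176). Postn, Fundc1 and Sema3e were at 0.06, 0.01 and -0.11 there. The interaction was called for none of these genes.

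The Y-linked helicase gene Ddx3y rose from 50.4 ± 11.6 to 95.1 ± 9.21 CPM (0.93 ± 0.145, edgeR adjusted p = 0.03). Its values were 66.5, 50.6, 40.0 and 44.4 CPM in C57BL/6 CN3 and 99.6, 90.0, 105.7 and 85.2 CPM in the libraries labelled albino CN3 1, CN3 2, EOM 1 and EOM 2. The call was lost without C57BL/6 CN3 2, 3 or 4, albino CN3 1 or 2 or albino EOM 1 (adjusted p up to 0.125). In the other brain libraries Ddx3y rose by 0.43 ± 0.07 without a call (edgeR adjusted p = 0.0667). The other Y-linked genes Kdm5d (29.2 to 32.8 and 29.0 to 34.2 CPM), Uty (13.4 to 19.97 and 19.1 to 20.9 CPM) and Eif2s3y (33.2 to 41.8 and 33.0 to 46.2 CPM) overlapped between the groups. Xist, expressed from the inactive X chromosome of females, was at most 0.258 CPM in all 8 libraries.

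Tyr itself could not be tested. It was at most 0.118 CPM in C57BL/6 CN3 and at 0 counts in the 4 albino libraries, which allows up to 0.0968 CPM in any of them. Of the 15 genes of the melanin pathway 9 were tested and 0 called. The share over all tested genes was 0.283%, so 0 called in such short lists says little. Of 14 genes known from inherited nystagmus or eye movement disorders, also a short list, 10 were tested and 0 called, with a median of 0.08. Fgf14, a partner of sodium channels on that list, ranged from 21.01 to 29.97 CPM in C57BL/6 CN3 and from 31.0 to 35.6 CPM in albino and was not called (edgeR adjusted p = 0.139).

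Gene groups of the tissue as a whole had 0 called members, against 0.283% of all tested genes. These were the lists of oligodendrocytes and myelin (19 tested), astrocytes (14), microglia and macrophages (18), endothelium and pericytes (17), glutamatergic transmission (18), synaptic vesicles and excitability (26), potassium channels (21) and ribosomal proteins (36). Their medians lay between -0.17 and 0.15. At the share over all tested genes, lists of this size would seldom hold a called gene, so 0 says little about them. The summed level of the potassium channel list was 3857 to 4134 CPM in C57BL/6 CN3 and 3628 to 3821 CPM in albino. These ranges did not overlap, as for 10.3% of single tested genes. Neurotrophic factors and receptors also had 0 called of 17, with 5 higher at an unadjusted p under 0.05 (8.44% of all tested genes), among them Bdnf at 14.4 to 17.7 CPM in C57BL/6 CN3 and 19.1 to 23.9 CPM in albino. The respiratory chain list had 0 called of 34, with 11 lower and 0 higher at an unadjusted p under 0.05 (7.78% and 8.44% of all tested genes) and a median of -0.105. The core clock list had 0 called of 19, with 5 lower and 0 higher at that threshold, against the same shares of all tested genes. The clock output gene Dbp read 38.0, 30.4, 22.5 and 21.2 CPM in C57BL/6 CN3 and 19.8, 14.4, 16.7 and 16.99 CPM in the libraries labelled albino CN3 1, CN3 2, EOM 1 and EOM 2. Its log2 fold change of -0.71 ± 0.18 was not called (edgeR adjusted p = 0.13).

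The 2 reassigned libraries were compared with the 2 albino libraries that kept their label. By edgeR 0 genes were called between them (0%), with 186 at an unadjusted p under 0.05, and neither DESeq2 nor limma voom called any. This fit had 2 libraries on each side and its spread was shared with the C57BL/6 CN3 libraries. Without the library labelled albino EOM 2, 6 genes were called, all higher in albino EOM 1, among them Cbln3, Car8, Fat2 and Ppp1r17, which are genes of the cerebellum. Each pair was also set against C57BL/6 CN3 alone; since no called gene overlaps between the groups, the direction of each was fixed beforehand. With 2 albino libraries each, 13 genes were called with the first (11 of the 45) and 6 with the second (6 of the 45). Chat had log2 fold changes of 4.89 and 4.21 in the 2 subsets, Cartpt 2.64 and 2.498 (called in neither, edgeR adjusted p = 0.0795 and 0.187), and Wdfy1 -1.57 and -1.48.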

How the data were processed

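RNA-seq read counts per gene were deposited by the authors as 1 table of 32 libraries. Per the submitters' processing notes, the tools were Trimmomatic 0.33, FastQC, HISAT2 2.1.0, featureCounts and edgeR, with mm10. Strand use in counting is not given in the sources used here. Counts were divided by library totals to give CPM. Genes were placed with GENCODE M21. The 4 against 4 comparison was fitted in edgeR 4.0.16 (filterByExpr, TMM, quasi-likelihood test, R 4.3.3), with calls at a Benjamini-Hochberg adjusted p under 0.05. The fit was tested on simulated counts of 15852 genes, recovering 58.2%, 75.8% and 98.5% of genes changed 1.5-fold, 2-fold and 4-fold, with 8 false among 162 calls. Alternatives were limma 3.58.1 (voom), DESeq2 1.42.0, other filters, scalings, thresholds, covariates, gene GC content and length, and leaving out libraries. Named genes were the marker genes, the 12 largest called changes per direction with a mean of at least 1 CPM and no overlap, and up to 4 genes per list with the smallest p. Other genes were named after their values were seen, among them the Y-linked, neighbouring and remaining called genes and Slc18a2, Prkcd, Slc6a2, Dbh, Ckm and Xist. The libraries and gene lists were chosen with earlier results of these data known.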

Additional observations from a re-analysis of the deposited data

Results flagged for a closer look

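In 12 of 166 groups of 4 libraries checked, 1 library stood far from the other 3 in CPM. The usual chance rate of about 1 in 20 does not apply here. Some genes, among them Prkcd, Slc6a2 and Dbh, were named after their values were seen, and groups with every value under 1 CPM could not be flagged. Albino CN3 2 had 7.72 CPM of Chodl (4.45 to 4.90 in the other albino libraries), 21.7 CPM of Slc6a2 (0 to 0.624) and 15.8 CPM of Dbh (0 to 0.581). The library labelled albino EOM 1 had 88.9 CPM of Cbln3 (0.724 to 3.08) and 157 CPM of Car8 (14.7 to 22.5). C57BL/6 CN3 1 had 298 CPM of Prkcd (11.03 to 14.4 in the other pigmented libraries) and 54.0 CPM of Slc17a7, a glutamate transporter (3.45 to 4.70). C57BL/6 CN3 2 had 3.03 CPM of Asb4 (2.28 to 2.38), 20.3 CPM of 1500012F01Rik (22.7 to 23.1) and 5.63 CPM of Slc6a5, the glycine transporter of inhibitory neurons (0.318 to 0.794). C57BL/6 CN3 3 had 3.23 CPM of Tph2 (0.859 to 1.11), and C57BL/6 CN3 4 had 1.44 CPM of Tnnt3, a muscle troponin (0.848 to 0.949).

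The genotype difference differed between the oculomotor and the other brain libraries in a direct test for 5 genes (edgeR interaction, log2 scale). The values were 4.13 for Chat, 5.34 for Slc18a3, 3.38 for Slc5a7, 3.40 for Cartpt and 1.47 for Klhl14.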

How the results depend on the processing

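Of the 45 called genes, 19 stayed called without any single library; directions without a library or by label were fixed by the lack of overlap. A filter of at least 1 CPM in 4 libraries left Lhx4 and Gm10408 untested. The count was 599 with DESeq2, 20 to 210 when 1 library was left out (210 without C57BL/6 CN3 1, 20 without albino CN3 2), 13 with the albino libraries labelled CN3 alone, 6 with those labelled EOM alone and 24 with the labels as separate groups. It was 383 with all brain libraries in 1 fit and 170 with Hoxb3 under 5 CPM, which added albino CN6 1 and lost the calls of Cartpt and Postn. With a covariate it was 1 for Chat, 0 for Tph2, 1 for Y-linked genes and, chosen after seeing the data, 0 for Gh. Chat, Tph2 and Gh do not overlap between the groups, so these fits carry the genotype too. With Chat as a covariate the log2 fold change reversed for Slc5a7 (-0.22), Chodl (-1.30), Lhx4 (-1.03), Cpeb3 (-0.59), Dynlt1b (0.33), 9430015G10Rik (0.068), Dner (-0.043) and Ddx3y (-0.34). With Tph2 it reversed for Slc6a4 (-0.14) and Fev (-2.09). The replicate block called 30 genes (18 of the 45). Among the calls it lost were Slc18a3, Prph, Chodl, Tph2, Slc6a4, Trh and Myh4. Same-numbered albino and C57BL/6 libraries correlated from -0.28 to 0.36, so no pairing by number was seen across the strains. Within the albino libraries, the same-numbered ones were closest by chi-square per gene of their counts. It was 8.37 for CN3 1 with EOM 1 and 12.99 for CN3 2 with EOM 2, by label, against 18.7 to 21.8 for unlike numbers. Whether same-numbered albino libraries share an origin was not tested, and the main fit took all 4 as separate. In the other brain libraries the count of 19 became 189 with DESeq2, 34 with voom, 3 with the replicate block and 6 to 35 without 1 library. The count of 5 differences between the sets became 24 with DESeq2, 1 with voom (Cartpt), 4 to 7 without 1 library and, chosen after seeing the data, 2 without albino CN6 1 and albino TA 1. Between the labels, 0 became 6 without albino EOM 2. The cause of these changes was not tested.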
